A study of Homo sapiens with 24 samples.

Results

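Libraries of 6 samples were compared here, 3 from HCT116 oxpl-R cells and 3 from parental HCT116 cells, both exposed to 25 µM oxaliplatin for 24 h; they are 6 of the 24 samples of the series, which has 8 groups of 3. HCT116 is an established human colorectal carcinoma line, and HCT116 oxpl-R is its derivative selected with repeated pulses of high-dose oxaliplatin. Both lines carry a doxycycline-inducible adenovirus E1A construct (TetOn-E1A), and neither group analysed here received doxycycline. The untreated samples of the same lines, 3 per line, served as the background without drug. The resistant line was described in the study as a karyotypically mixed, hypotetraploid population, so a difference between the lines in bulk RNA can come from all cells or from some of them, and fewer cells expressing a gene cannot be told apart from less RNA per cell.

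Oxaliplatin is a platinum drug that forms adducts and crosslinks on DNA. In cells with intact p53, such as HCT116, DNA damage stabilises p53, which raises transcription of genes for cell cycle arrest, such as CDKN1A, for its own degradation, such as MDM2, and for apoptosis, such as BAX and FAS. The CDKN1A product, p21, inhibits cyclin-dependent kinases; the DREAM complex and RB proteins then repress genes of DNA replication through E2F sites and genes of the G2 and M phases through the cell cycle homology region (CHR).

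Total counts of the 6 samples ranged from 26120498 to 31432410 estimated counts in the count table. Levels are given as CPM, counts scaled to a common library size by the TMM method over these 6 samples, and log2FC is the log2 ratio of HCT116 oxpl-R over HCT116. Genes with an adjusted p below 0.05 (edgeR quasi-likelihood test, Benjamini-Hochberg) and an absolute log2FC above 1 are called DEGs. The labels name the samples biological replicates without saying how the cultures were separated, so p-values measure the spread between these samples.

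Some libraries stood apart from the rest. In HCT116 oxpl-R replicate 1, genes encoded in mitochondria took 1.38% of the counts, against 11% to 19.7% (median 14.6%) in the other 23 samples of the series. The same library held 30.4% of values that were not whole numbers, against 15.9% to 25.3% in the others. Its deviation from the mean of its group rose with the GC content of genes (Spearman's rho 0.67 across 9358 genes), while that of HCT116 oxpl-R replicate 3 fell (rho -0.71). In HCT116, replicate 3 was the most distant of the group, with a standard deviation of its log2 deviations of 0.46 against 0.30 and 0.25 for replicates 1 and 2. Counts of all replicate pairs differed by more than sampling noise, so no library was counted as a repeat of another. The part of the low mitochondrial share and of the GC trends in the results was not tested.

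**Figure D1:**
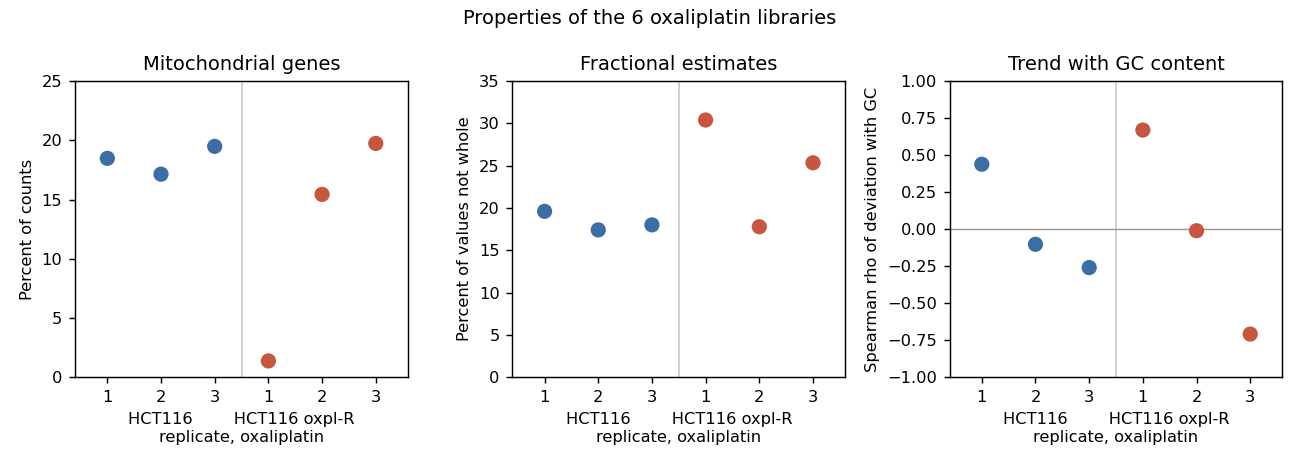
Percent of counts from mitochondrial genes (left), percent of values that were not whole numbers (middle) and Spearman's rho of the library's deviation from its group mean with gene GC content (right) for each of the 6 oxaliplatin libraries, HCT116 in blue and HCT116 oxpl-R in red. HCT116 oxpl-R replicate 1 sits at 1.38% mitochondrial counts and 30.4% fractional values, and HCT116 oxpl-R replicates 1 and 3 lie on opposite sides of 0 in the right panel.

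Across the same 9358 genes, the difference between the lines had a Spearman correlation with GC content of -0.40 under oxaliplatin and 0.02 without drug; these genes share the same 6 libraries and are not independent points. The counts of each list, apart from the cell type markers, are therefore also given with a smooth GC trend removed from every library. The leading counts are also given without HCT116 oxpl-R replicate 1 and without HCT116 replicate 3. In lists with few called members, the count without a library is given where it moved by more than 1.5 times.

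The cell identity was checked first. The keratins KRT8 (7057 ± 534 CPM in HCT116 and 7043 ± 1221 CPM in HCT116 oxpl-R, SD, n = 3) and KRT18 were abundant in both lines, as were EPCAM, an epithelial surface adhesion protein, at 329.6 ± 74.7 and 226 ± 37.6 CPM, and CDH1, E-cadherin, at 173 ± 27.9 and 114 ± 12.8 CPM. The intestinal transcription factors CDX2 (38.4 ± 2.64 and 55.6 ± 15.7 CPM) and HNF4A (15.4 ± 2.98 and 22.3 ± 4.93 CPM) were detected in every sample. Of the 18 epithelial markers listed, 15 were tested and 0 were called by edgeR in either direction, with 2 members in each direction at an unadjusted p under 0.05 and 0 called by DESeq2. Over all genes tested, 8.08% were higher and 7.43% lower, so 0 of 15 says little about equal levels. CEACAM5, FABP1 and GUCA2A, markers of differentiated colon cells, had no count in these 6 samples.

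Markers of other cell types summed to 44.3, 40 and 46.9 CPM in HCT116 and to 49.2, 110 and 39 CPM in HCT116 oxpl-R. The leukocyte genes PTPRC and CD3E had no count, and the most abundant marker in HCT116 was COL1A1, a collagen chain, at 26 ± 2.44 CPM against 18.9 ± 8.65 CPM in HCT116 oxpl-R. The high sum in HCT116 oxpl-R replicate 2 came with ACTA2, smooth muscle actin, which read 19, 92 and 16.9 CPM in HCT116 oxpl-R against 12.3, 12.6 and 14.9 CPM in HCT116. ACTA1, skeletal muscle actin, read 0.257, 977 and 0.388 CPM in HCT116 oxpl-R and stayed under 0.4 CPM in HCT116, so the calls of both actin genes rest on that 1 library. Without it, log2FC was 0.43 for ACTA2 and -0.02 for ACTA1, and neither was called. Both calls also ended without HCT116 replicate 3 (ACTA2 1.775, adjusted p = 0.115, and ACTA1 9.67, adjusted p = 0.0946). That of ACTA2 ended with the GC trend removed as well (1.61, adjusted p = 0.0609).

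Gene expression separated the lines clearly under the drug. Pearson correlations of log2 CPM were 0.981 to 0.996 within HCT116, 0.982 to 0.986 within HCT116 oxpl-R and 0.951 to 0.970 between the lines, and the first principal component took 73.3% of the variance among the 500 most variable genes. Of 19253 genes tested, 1555 were upregulated in the resistant line (8.08%) and 1430 were downregulated (7.43%). At an absolute log2FC above 2, 519 were higher and 370 lower. The 3 resistant and 3 parental samples were fully separated for 6994 genes, 36.3% of those tested.

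The upregulated genes with the largest log2FC were nearly silent in HCT116 cells. LCN2, a secreted siderophore-binding protein (chr9:128149071-128153453, GRCh38), read 0.18, 0.287 and 0.126 CPM in HCT116 and 39.3, 54.2 and 62.4 CPM in HCT116 oxpl-R (log2FC 8.02 ± 0.41 (SE), adjusted p = 2.44e-07). NEDD9, a focal adhesion scaffold, read 0.504, 0.108 and 0.727 CPM in HCT116 and 49.8, 62.4 and 47.5 CPM in HCT116 oxpl-R (log2FC 6.87 ± 0.49, adjusted p = 3.24e-06). Separated samples were a condition of the ranking by log2FC, and all 3 resistant samples lay far above all 3 parental samples for both genes. BMP2, a secreted growth factor, had no count in HCT116 and 2.44, 2.75 and 2.91 CPM in HCT116 oxpl-R, which is at least 26.1-fold higher when 3 counts per library are allowed for a count of 0. PRICKLE2, a planar polarity protein, was likewise at 0 in HCT116 and at least 18.5-fold higher. IL13RA2, a decoy receptor of interleukin 13, had 2 counts in all HCT116 libraries together and 604 in HCT116 oxpl-R, a ratio of 308 with a 95% exact interval of 84.8 to 2546 that covers counting error only.

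The downregulated genes with the largest log2FC included genes with no count at all in the resistant line. The Y-linked genes RPS4Y1, a ribosomal protein, DDX3Y, an RNA helicase, KDM5D, a histone demethylase, and EIF1AY, a translation initiation factor, were expressed in every HCT116 library and had no count in any HCT116 oxpl-R library. RPS4Y1 read 235, 254 and 90.4 CPM in HCT116, at least 1825-fold above the resistant line, DDX3Y was at least 270-fold, KDM5D at least 220-fold and EIF1AY at least 200.2-fold higher. EXO5, a single-strand DNA exonuclease, read 4.57, 5.49 and 3.51 CPM in HCT116 and had no count in HCT116 oxpl-R (at least 42.8-fold). PDE4B, a cAMP phosphodiesterase (chr1:65792514-66374579), read 30.8, 39.8 and 61.6 CPM in HCT116 and 0, 0.0348 and 0.0776 CPM in HCT116 oxpl-R. Its 3 counts in the resistant line against 3912 in the parental line give a ratio of 1280 with an interval of 438 to 6209. LIPG, an endothelial lipase, had 1 count in HCT116 oxpl-R and 764 in HCT116, a ratio of 750 with an interval of 134 to 29660.

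Among abundant transcripts, the largest gains in mean CPM included CDKN1A, the ribosomal protein gene RPL3 (919 ± 139 to 2377 ± 494 CPM, log2FC 1.37, adjusted p = 0.00415), ALDH1A3, a retinaldehyde dehydrogenase, and ANXA2, a membrane-binding annexin (log2FC 1.42, adjusted p = 0.00531). ANXA2 read 693, 842 and 771 CPM in HCT116 and 2119, 1314 and 2722 CPM in HCT116 oxpl-R, with a wide spread in the resistant line. ALDH1A3 read 368, 316 and 327 CPM in HCT116 and 1771, 1803 and 1373 CPM in HCT116 oxpl-R (log2FC 2.29 ± 0.26, adjusted p = 7.62e-05). Among the largest losses, PFN1, the actin-binding protein profilin, read 2487 ± 69.2 CPM in HCT116 and 709 ± 66.3 CPM in HCT116 oxpl-R (log2FC -1.81 ± 0.26, adjusted p = 0.000407). Separated samples were a condition of this ranking, so all 5 genes have them by selection. ACTB (beta-actin, log2FC -1.04), RPS2 (a ribosomal protein, -1.07), FTL (ferritin light chain, -1.05) and HMGA1 (a chromatin protein, -1.02) lay close to the fold cutoff, and each lost its call with the GC trend removed and when any of several single libraries was left out, with log2FC between -1.27 and -0.87 over all libraries left out in turn. HSP90AB1, a cytosolic chaperone, was lower at -1.23, but its value in HCT116 oxpl-R replicate 2 was 557 CPM against 1623 and 1346 CPM in the others, and without that library log2FC was -0.89 (adjusted p = 0.0799); without HCT116 replicate 3 the adjusted p was 0.0668.

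Many genes activated by p53 were higher in the resistant line. Over all genes tested, 8.08% were higher and 7.43% lower. Of 38 p53 targets listed, 36 were tested and 18 were higher, with 0 lower by edgeR or DESeq2 (3 members lower at an unadjusted p under 0.05); the median log2FC was 1.01, against 0.04 over all genes tested, and samples did not overlap for 28 members (25 with HCT116 oxpl-R above and 3 with HCT116 above), beside 36.3% of all genes tested. With the GC trend removed, 17 were higher at a median of 0.93, and without HCT116 oxpl-R replicate 1 and HCT116 replicate 3 in turn, 16 and 17 were higher. CDKN1A, which encodes p21 (chr6:36676460-36687337), read 2142, 1758 and 1725 CPM in HCT116 and 4425, 3812 and 3439 CPM in HCT116 oxpl-R (log2FC 1.05 ± 0.29, adjusted p = 0.019). Every resistant sample was above every parental sample, but the call ended without HCT116 replicate 2 (log2FC 1.06, adjusted p = 0.0835), without HCT116 replicate 3 (1.00, 0.0319) or without HCT116 oxpl-R replicate 1 (0.95, 0.0107).

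MDM2, the ubiquitin ligase that degrades p53 (chr12:68808177-68845544), read 107, 125 and 185 CPM in HCT116 and 566, 651 and 772 CPM in HCT116 oxpl-R (log2FC 2.26 ± 0.27, adjusted p = 0.000124). TP53I3, a quinone oxidoreductase, read 64.9, 68 and 35.1 CPM against 307, 298 and 289 CPM (log2FC 2.41 ± 0.26, adjusted p = 0.000105). GDF15, a secreted stress cytokine, read 509, 465 and 429 CPM against 2238, 1400.3 and 1294 CPM (log2FC 1.81 ± 0.29, adjusted p = 0.00072). The resistant samples were higher throughout for all 3 genes, with little spread for TP53I3 in the resistant line and with replicate 1 highest for GDF15. The kinase PLK2 (log2FC 2.48), the mitochondrial quality control gene SPATA18 (3.02), the death receptor FAS (1.55) and the pore-forming BAX (1.11) were also higher; the BAX call ended without HCT116 oxpl-R replicate 1 (log2FC 0.96, adjusted p = 0.0112). BBC3, which encodes the BH3-only protein PUMA, went the other way without being called, at 109 ± 9.07 CPM in HCT116 and 74.5 ± 20 CPM in HCT116 oxpl-R (log2FC -0.55, adjusted p = 0.131).

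Most genes of the G2 and M phases were lower in the resistant line under the drug. Of 45 listed, 43 were tested, 28 were lower and 0 were higher by edgeR or DESeq2, with no member higher at an unadjusted p under 0.05; the median log2FC was -1.88, and 42 of the 43 had a log2FC below 0. Over all genes tested 7.43% were lower. Samples did not overlap for 29 members, all with HCT116 above, beside 36.3% of all genes tested. The count was 35 at a median of -2.0 with the GC trend removed, 22 without HCT116 oxpl-R replicate 1 and 23 without HCT116 replicate 3.

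PLK1, the mitotic kinase that drives mitotic entry (chr16:23677656-23690367), read 221, 204 and 199 CPM in HCT116 and 29.9, 16.3 and 25 CPM in HCT116 oxpl-R (log2FC -3.13 ± 0.26, adjusted p = 8.44e-06). CDC20, the activator of the anaphase-promoting complex, read 417, 399 and 356 CPM against 52.4, 39.5 and 46.2 CPM (log2FC -3.08 ± 0.24, adjusted p = 4.55e-06). MKI67, the proliferation antigen Ki-67, read 234, 209 and 389 CPM against 29.6, 29 and 44.1 CPM (log2FC -3.02 ± 0.30, adjusted p = 2.41e-05). The lowest parental sample was several times the highest resistant sample for each of these genes. BIRC5, which encodes survivin, fell in the same direction (444 ± 85.4 and 81.7 ± 18.5 CPM, log2FC -2.44). AURKB, the kinase of the chromosomal passenger complex (log2FC -2.97), and the transcription factors of the G2 and M programme FOXM1 (-2.64) and MYBL2 (-2.68) were also lower; these 3 were chosen after their values were seen. Members differed among themselves: CCNB1, cyclin B1, overlapped between the lines (95.2 ± 17.8 and 68 ± 21.1 CPM, adjusted p = 0.222), and CDK1, its kinase, was not called (97.8 ± 21.7 and 60.9 ± 24.6 CPM, log2FC -0.68, adjusted p = 0.137) unless the GC trend was removed (-1.20, adjusted p = 0.00702). TOP2A, DNA topoisomerase II alpha, read 22.9, 26.2 and 114 CPM in HCT116 and 16.5, 6.52 and 33.1 CPM in HCT116 oxpl-R, with replicate 3 highest in both lines; it was not called in the unpaired test (log2FC -1.54, adjusted p = 0.102) and was lower in the paired fit with the replicate block (-1.43, adjusted p = 0.0103).

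Most DNA replication genes were lower as well, beside 7.43% of all genes tested. Of 54 listed, 52 were tested, 32 were lower and 0 were higher by edgeR or DESeq2 (1 higher at an unadjusted p under 0.05), at a median log2FC of -1.17, and 49 had a log2FC below 0; samples did not overlap for 37, of which 35 had HCT116 above and 2 HCT116 oxpl-R above (36.3% of all genes tested). The count was 34 with the GC trend removed, 26 without HCT116 oxpl-R replicate 1 and 29 without HCT116 replicate 3. CDT1, which licenses replication origins, read 178, 182 and 166 CPM in HCT116 and 25.4, 16.7 and 17.2 CPM in HCT116 oxpl-R (log2FC -3.15 ± 0.25, adjusted p = 5.69e-06). TK1, thymidine kinase, read 607, 617 and 586 CPM against 118, 79.1 and 103 CPM (log2FC -2.59 ± 0.23, adjusted p = 2.13e-05). Both genes were tight within HCT116 and lay apart in every sample. MCM10, a replisome factor, was lower at -2.80, RRM2, the ribonucleotide reductase subunit, at -2.0 (418 ± 39.3 and 105 ± 19.8 CPM), and E2F1, the transcription factor of S phase genes, chosen after its values were seen, at -2.54 (119.5 ± 7.89 and 20.5 ± 2.25 CPM). PCNA, the sliding clamp and also a p53 target, went the other way at 326 ± 42.8 CPM in HCT116 and 532 ± 82.8 CPM in HCT116 oxpl-R, under the fold cutoff (log2FC 0.71, adjusted p = 0.0498).

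Inhibitors of cyclin-dependent kinases did not move as a group. Their counts are to be read against 8.08% higher and 7.43% lower over all genes tested. Of 8, CDKN1A and CDKN2B (p15; log2FC 1.22, adjusted p = 0.00816) were higher, and CDKN2A, CDKN2C (p18; -1.40, adjusted p = 0.00473) and CDKN1C (p57; -1.05) were lower (2 higher and 2 lower with the GC trend removed; 1 higher without HCT116 replicate 2 or 3 or HCT116 oxpl-R replicate 1). CDKN2A, the locus of p16 and p14ARF, read 272, 199.9 and 171 CPM in HCT116 and 53.3, 42.9 and 29.5 CPM in HCT116 oxpl-R (log2FC -2.35 ± 0.28, adjusted p = 0.000103). No resistant sample reached the lowest parental one. CDKN1C lay at the cutoff and lost its call with the GC trend removed (log2FC -0.59) and without HCT116 replicate 1 (log2FC -0.96), HCT116 replicate 2 (-0.98) or HCT116 oxpl-R replicate 3 (-0.95).

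**Figure D2:**
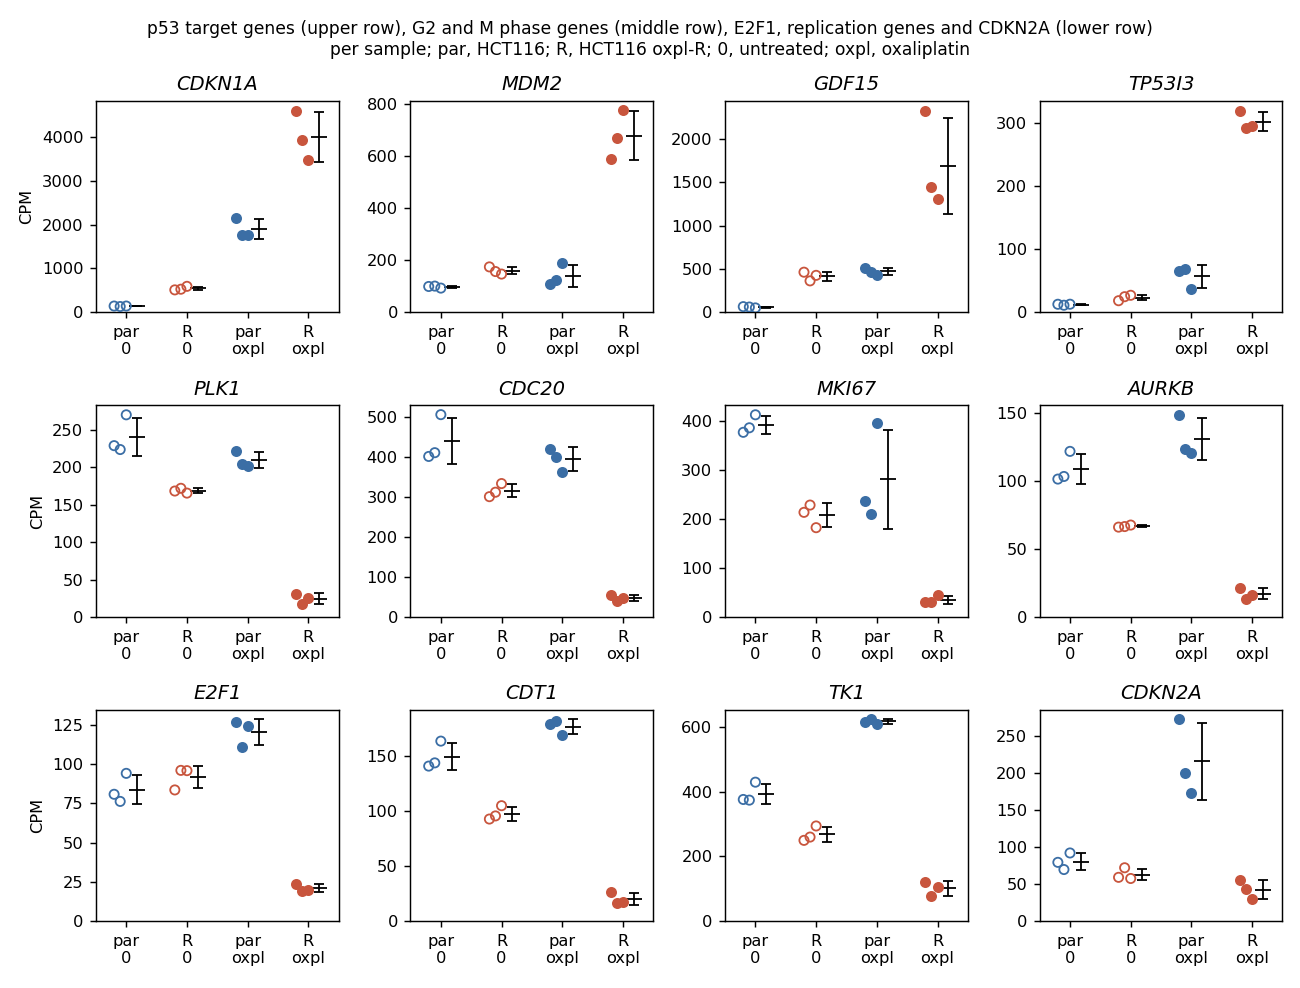
CPM of each sample, scaled over the 12 samples, for 12 genes in untreated (open points) and oxaliplatin-treated (filled points) HCT116 (blue, par) and HCT116 oxpl-R (red, R) cells; black marks are the mean and SD of 3 samples and every vertical axis starts at 0. The 4 p53 targets of the upper row are highest in treated HCT116 oxpl-R cells, and the 4 G2 and M phase genes, E2F1, CDT1 and TK1 are lowest there.

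Promoter sequences of 4 of these genes are shown because they carry the letters through which the p53 and p21 pathway is known to repress cell cycle genes. They are the 150 bases before the transcription start in RefSeq (GRCh38.p14), read 5′ to 3′ on the strand of the gene, at chr16:23678739-23678888 (plus strand) for PLK1, chr1:43358831-43358980 (plus) for CDC20, chr10:128126424-128126573 (minus) for MKI67 and chr16:88803639-88803788 (plus) for CDT1. Capitals mark TTTGAA (a CHR), CCAAT or its complement ATTGG, and GCGGGAAA, the complement of the E2F letters TTTCCCGC; in MKI67 the last TTTGAA overlaps an ATTGG.
PLK1: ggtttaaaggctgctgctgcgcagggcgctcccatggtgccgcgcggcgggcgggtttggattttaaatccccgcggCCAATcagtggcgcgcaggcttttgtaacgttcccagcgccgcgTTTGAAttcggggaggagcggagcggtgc
CDC20: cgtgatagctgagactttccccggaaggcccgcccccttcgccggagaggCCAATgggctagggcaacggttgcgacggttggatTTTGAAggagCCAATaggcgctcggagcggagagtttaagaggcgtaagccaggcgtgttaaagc
MKI67: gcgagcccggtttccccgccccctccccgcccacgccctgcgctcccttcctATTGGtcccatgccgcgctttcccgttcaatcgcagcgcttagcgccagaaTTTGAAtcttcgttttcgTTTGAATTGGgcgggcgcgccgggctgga
CDT1: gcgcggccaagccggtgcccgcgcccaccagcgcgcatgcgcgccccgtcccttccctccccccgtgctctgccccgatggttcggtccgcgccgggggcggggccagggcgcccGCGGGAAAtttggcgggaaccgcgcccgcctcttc
PLK1 and CDC20 hold 1 CHR each and MKI67 holds 2, and all 3 also hold CCAAT or ATTGG, whereas CDT1 holds neither in these bases and carries the E2F letters. CDT1 is shown as an example with E2F letters: in the same 150 bases, MCM10 and TK1 hold CCAAT or ATTGG 2 times each and no E2F letters.

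Motifs were searched on both strands in windows of 250 bases before to 50 after each start: TTTGAA or TTCGAA for the CHR, CCAAT, and TTTCCCGC or TTTGGCGC for E2F. Of the 13495 tested genes with a window, 16.3% held CHR letters, 41.5% CCAAT and 3.93% E2F letters. Among the 24 lower G2 and M phase genes with a window, 75% held CHR letters, 87.5% CCAAT and 8.33% E2F letters; among the 15 members that were not called, 80% held CHR letters and 73.3% CCAAT. Among the 28 lower DNA replication genes with a window, 7.14% held CHR letters, 64.3% CCAAT and 46.4% E2F letters, and among the 15 members not called with a window, 40% held E2F letters. Members not called held E2F letters in 0% of the G2 and M phase genes with a window and CCAAT in 53.3% of the DNA replication genes with a window. Differences between called and uncalled members were not tested. A match is a description of the sequence and not a bound site.

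Genes of crosslink repair shared the downward direction in part. Among all genes tested, 7.43% were lower and 8.08% higher. In the list of Fanconi anemia and homologous recombination genes, 28 of 31 were tested and 11 were lower, with 0 higher by edgeR or DESeq2 and none higher at an unadjusted p under 0.05 (median log2FC -1.14; 14 lower with the GC trend removed; 7 without HCT116 oxpl-R replicate 1; 7 without HCT116 replicate 3). EXO1, a resection exonuclease, read 20.9, 20 and 34.8 CPM in HCT116 and 3.53, 3.23 and 7.22 CPM in HCT116 oxpl-R (log2FC -2.44 ± 0.38, adjusted p = 0.000643). FANCG, a subunit of the Fanconi core complex, read 126, 118 and 108 CPM against 37, 24.6 and 28.3 CPM (log2FC -1.97 ± 0.23, adjusted p = 0.000103), and RAD54L, which remodels recombination intermediates, was lower at -2.10. The lines did not overlap for these genes.

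BRCA1 and BRCA2, chosen after their values were seen, varied more within HCT116. BRCA1 read 6.16, 7.11 and 25.6 CPM in HCT116 and 2.97, 2.75 and 4.35 CPM in HCT116 oxpl-R (log2FC -1.95, adjusted p = 0.0134), and the call ended without HCT116 replicate 3 (-0.98, 0.0551) or HCT116 oxpl-R replicate 1 (-1.87, 0.0723). BRCA2 read 2.12, 3.2 and 14.6 CPM against 2.09, 0.521 and 2.68 CPM, was not called (log2FC -1.92, adjusted p = 0.0645), and passed in the paired fit with the replicate block (-1.69, adjusted p = 0.00762). The helicase BLM showed the same pattern, with 25.8 CPM in HCT116 replicate 3 against 4.78 and 8.94 CPM; its call (log2FC -2.01) ended without that library (-1.07, adjusted p = 0.315) or without HCT116 oxpl-R replicate 1 (-1.74, adjusted p = 0.206). HCT116 replicate 3 was high for all 3 genes. RAD51C, a recombination factor, overlapped between the lines (50.5 ± 11.9 and 56.6 ± 16.6 CPM).

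Nucleotide excision repair did not follow, with 4 of 21 members higher and 1 lower, beside 8.08% and 7.43% of all genes tested. Of 21 members tested, CETN2, a subunit of the damage recognition complex (13.3 ± 2.46 to 47.9 ± 4.06 CPM, log2FC 1.85, adjusted p = 0.000252), MNAT1 (1.67) and CCNH (1.46), both of the kinase module of TFIIH, and CDK7, its kinase (22.7 ± 3.37 to 54.5 ± 22.5 CPM, 1.26, adjusted p = 0.0117), were higher. CDK7 was named after its values were seen, and its call ended without HCT116 replicate 3 (adjusted p = 0.0532) or with the GC trend removed (0.93). ERCC2, the TFIIH helicase, was lower (128 ± 3.92 to 59 ± 12.6 CPM, log2FC -1.11), and its call ended without HCT116 oxpl-R replicate 3 (-0.91) or with the GC trend removed (-0.79). With the GC trend removed, 3 members were higher and 0 lower by edgeR, and without HCT116 oxpl-R replicate 1 and 3 in turn, 2 and 0 were lower. ERCC1, the endonuclease subunit often discussed with platinum drugs, overlapped (144 ± 16.3 and 157 ± 20.3 CPM, adjusted p = 0.715). In translesion synthesis, 2 of 10 were lower (1 with the GC trend removed), and 1 member was higher without HCT116 replicate 3 or HCT116 oxpl-R replicate 2. MAD2L2, a subunit of polymerase zeta, was lower at -1.21 (-0.88 with the GC trend removed, under the cutoff), and PRIMPOL, a repriming primase, at -1.17 (4.05 ± 0.39 to 1.8 ± 0.626 CPM, adjusted p = 0.0353), a call that ended without any 1 of 4 libraries (adjusted p up to 0.0984). POLH, the polymerase that bypasses platinum adducts and a p53 target, was higher in every resistant sample but did not pass the fold cutoff (40.3 ± 7.72 and 76.8 ± 4.52 CPM, log2FC 0.93, adjusted p = 0.00986).

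In the DNA damage checkpoint list, 1 of 19 genes was higher and 7 were lower, beside 8.08% and 7.43% of all genes tested (1 and 6 with the GC trend removed). Without HCT116 replicate 3, 4 were higher, and without HCT116 oxpl-R replicate 2, 2 were. H2AX, the histone variant phosphorylated at breaks, read 278, 259 and 234 CPM in HCT116 and 71.8, 62.9 and 41.9 CPM in HCT116 oxpl-R (log2FC -2.12 ± 0.25, adjusted p = 0.000103). MDC1, which binds phosphorylated H2AX, was lower at -1.97 (76.7 ± 18.7 and 19.6 ± 2.96 CPM) and the phosphatase CDC25B at -1.44 (307 ± 11.6 and 113 ± 35.8 CPM). CLSPN, the adaptor of CHEK1 activation, was lower at -1.65, and the call ended without HCT116 replicate 3 (-1.06, adjusted p = 0.0623) or HCT116 oxpl-R replicate 1 (-1.59, adjusted p = 0.063).

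Apoptosis genes went both ways, to be read against 8.08% higher and 7.43% lower over all genes tested. Of 20 BCL2 family genes, 2 were higher and 4 lower, with the same counts after the GC trend was removed; without HCT116 oxpl-R replicate 1, 1 was higher. The median log2FC of -0.53 (-0.31 with genes at 0 in a line set at their bound) became -0.063 with the GC trend removed. BCL2L15, a family member expressed in gut epithelium, read 1.83, 2.69 and 2.21 CPM in HCT116 and 26.6, 43.4 and 44.6 CPM in HCT116 oxpl-R (log2FC 4.09 ± 0.33, adjusted p = 6.32e-06). BCL2L12 was lower (149 ± 27.2 to 32.9 ± 5.73 CPM, log2FC -2.18, adjusted p = 5.85e-05), as were the BH3-only genes BMF (-1.69) and BID (229 ± 73.6 to 92.3 ± 15.2 CPM, -1.31). BCL2L1, which encodes BCL-XL, was the most abundant anti-apoptotic member and was not called (452 ± 29.9 and 581 ± 84.8 CPM, adjusted p = 0.312).

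Among 23 death receptor and caspase genes, 6 were higher, beside 8.08% of all genes tested (5 with the GC trend removed). The decoy receptors of the ligand TRAIL stood out: TNFRSF10C read 0.613, 0.653 and 0.595 CPM in HCT116 and 23.6, 29.9 and 36 CPM in HCT116 oxpl-R (log2FC 5.58 ± 0.32, adjusted p = 2.16e-06), and TNFRSF10D read 49.3, 55 and 48.7 CPM against 278, 291 and 253 CPM (log2FC 2.42 ± 0.20, adjusted p = 1.56e-05). The signalling receptor TNFRSF10B (DR5) was higher in every resistant sample but under the fold cutoff (199 ± 13.7 and 358 ± 53.9 CPM, log2FC 0.85, adjusted p = 0.0115).

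Among 19 genes of platinum and copper transport, 4 were higher (2 with the GC trend removed). Over all genes tested, 8.08% were higher and 7.43% lower. ABCG2, a multidrug efflux pump, read 1.4, 2.23 and 3.57 CPM in HCT116 and 8.34, 5.28 and 16.6 CPM in HCT116 oxpl-R (log2FC 2.07 ± 0.46, adjusted p = 0.00633). ATOX1, the copper chaperone, read 35.9, 34.7 and 25.6 CPM against 72.3, 91.2 and 93.4 CPM (log2FC 1.42 ± 0.23, adjusted p = 0.00096), and SLC31A2, a vesicular copper transporter, was higher at 1.22 (0.96 with the GC trend removed). COX17, a copper chaperone of mitochondria named after its values were seen, was higher at 1.15 (38.8 ± 16.6 to 85.9 ± 17.7 CPM, adjusted p = 0.021), and its call ended without HCT116 replicate 3 (0.83), without HCT116 oxpl-R replicate 1 (0.96, adjusted p = 0.0886) or with the GC trend removed (0.94, adjusted p = 0.0616). The transporters most often discussed with platinum drugs were not called: SLC31A1 (copper uptake; 30.6 ± 6.46 and 34.4 ± 3.18 CPM), ATP7A (5.85 ± 4.57 and 9.02 ± 4.86 CPM), ATP7B (18.2 ± 2.54 and 15.2 ± 1.5 CPM), ABCC1 (196 ± 31.2 and 142 ± 22 CPM) and ABCC2 (136 ± 49.6 and 96.2 ± 17.2 CPM). Of 4 metallothioneins tested, the metal-binding proteins MT1F (log2FC -1.82, adjusted p = 0.00285) and MT1X (-1.23) were lower, as with the GC trend removed; the MT1X call ended without HCT116 replicate 2 (-0.94, adjusted p = 0.102) or HCT116 oxpl-R replicate 3 (-1.18, adjusted p = 0.0649). MT2A read 192, 164 and 175 CPM in HCT116 and 90.8, 0.869 and 56 CPM in HCT116 oxpl-R, with replicate 2 near 0; it was not called (log2FC -1.85, adjusted p = 0.152) and passed in the paired fit with the replicate block (-2.77, adjusted p = 0.0124).

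Glutathione and NRF2 genes were mixed, with 6 of 35 higher and 4 lower, beside 8.08% and 7.43% of all genes tested (4 and 2 with the GC trend removed). Without HCT116 oxpl-R replicate 3, 3 were higher, and without HCT116 replicate 1 or 2, 2 were lower. The aldo-keto reductase AKR1B10 read 0.648, 1.04 and 1.17 CPM in HCT116 and 11.8, 12.7 and 10.8 CPM in HCT116 oxpl-R (log2FC 3.62 ± 0.35, adjusted p = 2.09e-05), and AKR1C3 was higher at 3.14 (1.1 ± 0.419 to 9.77 ± 2.57 CPM). SLC7A11, the cystine importer, was higher at 1.89, and the call ended without HCT116 oxpl-R replicate 1 (1.83, adjusted p = 0.0645) or 3 (1.76, adjusted p = 0.0609). Of enzymes that supply or use reduced glutathione, the lower ones included GSR, glutathione reductase (424 ± 59.5 to 151 ± 21.8 CPM, -1.49, adjusted p = 0.000702), and GSTP1, glutathione transferase P (2312 ± 410.5 to 1103 ± 61 CPM, -1.07, adjusted p = 0.013). The GSTP1 call ended without HCT116 replicate 1 (-0.89, adjusted p = 0.0888) or 2 (-1.02, adjusted p = 0.0542) or with the GC trend removed (-0.66).

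Of 9 genes of the aryl hydrocarbon receptor pathway, 4 were higher, beside 8.08% of all genes tested (median log2FC 1.00). With the GC trend removed, 5 were higher and 1 lower, and 1 was lower without HCT116 replicate 1 or 2. AHR, the receptor, read 40.3, 45 and 65.6 CPM in HCT116 and 130.2, 228 and 221 CPM in HCT116 oxpl-R (log2FC 1.94 ± 0.28, adjusted p = 0.000402). TIPARP, a target that limits the receptor, was higher at 1.69, and NQO1, a quinone reductase, at 1.42 (411 ± 118 to 1096 ± 299 CPM). The targets CYP1A1 (12.3 ± 1.74 and 9.05 ± 2.11 CPM) and CYP1B1 (3.07 ± 0.407 and 1.78 ± 0.195 CPM), both P450 enzymes, had lower means in the resistant line and were not called.

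In the integrated stress response, 5 of 23 genes were higher and 2 lower, beside 8.08% and 7.43% of all genes tested (5 and 0 with the GC trend removed). Without HCT116 oxpl-R replicate 3, 3 were higher and 1 lower, and without HCT116 replicate 3, 1 was lower. DDIT3, the transcription factor CHOP, read 3.85, 4.27 and 3 CPM in HCT116 and 16.1, 14.8 and 14.4 CPM in HCT116 oxpl-R (log2FC 2.02 ± 0.29, adjusted p = 0.000419), and CTH, cystathionine gamma-lyase, 10.7 ± 0.838 and 53.5 ± 10.3 CPM (2.32). TRIB3, a pseudokinase, went the other way at 105 ± 0.304 and 41.4 ± 9.49 CPM (-1.34; -0.96 with the GC trend removed, under the cutoff). The central factors ATF4 (518 ± 177 and 634 ± 57 CPM) and ATF3 (48.2 ± 5.39 and 56.5 ± 9.86 CPM) overlapped between the lines.

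Of 36 interferon-stimulated genes, 10 were lower, 1 was higher and 25 were called in neither direction, beside 7.43% lower and 8.08% higher over all genes. The counts were the same after the GC trend was removed. The median log2FC was -0.51, or -0.27 with genes at 0 in a line set at their bound. OAS3, an antiviral oligoadenylate synthetase, read 79.1, 71.5 and 80.6 CPM in HCT116 and 17.5, 16 and 17.4 CPM in HCT116 oxpl-R (log2FC -2.18 ± 0.22, adjusted p = 2.77e-05). IFITM3, which blocks viral entry, read 575, 523 and 527 CPM against 146, 187 and 191 CPM (log2FC -1.64 ± 0.23, adjusted p = 0.000326), and BST2, tetherin, was lower at -3.28. The higher gene was IFI27 (3.44 ± 1.2 to 7.32 ± 0.25 CPM, log2FC 1.09), whose call ended without HCT116 replicate 2 or 3 or HCT116 oxpl-R replicate 1 or 2. Of 18 genes of MHC class I presentation, 6 were lower (median log2FC -0.74), and 4 with the GC trend removed. TAPBP, which loads peptides, read 126, 112 and 160 CPM in HCT116 and 40.5, 39.9 and 33.2 CPM in HCT116 oxpl-R (log2FC -1.81, adjusted p = 0.000189), and PSMB9, an immunoproteasome subunit, was lower at -2.34. HLA-C, a heavy chain, lay near the cutoff (-1.08) and lost its call without HCT116 replicate 1 (-0.93) or HCT116 oxpl-R replicate 3 (-0.87) or with the GC trend removed (-0.75). CALR, an abundant chaperone of the list, was not called (1080.2 ± 141 and 1486 ± 179 CPM).

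The APOBEC3 cytidine deaminases, also antiviral, were mostly higher, beside 8.08% of all genes tested. Of 7 tested, 5 were called, also with the GC trend removed (median log2FC 2.01, or 1.75 with genes at 0 in a line set at their bound). APOBEC3C read 333, 311 and 255 CPM in HCT116 and 746, 867 and 946 CPM in HCT116 oxpl-R (log2FC 1.51 ± 0.24, adjusted p = 0.000803), APOBEC3F 46.3 ± 6.61 and 156 ± 8.6 CPM (1.75) and APOBEC3D 2.85 ± 0.925 and 15.6 ± 4.73 CPM (2.45). These genes lie side by side and are similar in sequence, so estimated counts may be split among them.

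NF-κB targets went both ways (3 of 25 higher, 4 lower, beside 8.08% and 7.43% of all genes tested; 3 and 2 with the GC trend removed, and 2 lower without HCT116 replicate 1 or HCT116 oxpl-R replicate 3). ICAM1, an adhesion receptor for leukocytes, read 8.42, 7.18 and 8.28 CPM in HCT116 and 43.2, 41 and 37.4 CPM in HCT116 oxpl-R (log2FC 2.35 ± 0.25, adjusted p = 5.14e-05), while NFKB1, a subunit of the factor, was lower (48.4 ± 4.09 to 17.7 ± 3.14 CPM, -1.45) and the inhibitor NFKBIE also (-1.45). Of 21 AP-1 and immediate early genes, 4 were lower, among them JUNB (401 ± 29.9 to 172 ± 40.3 CPM, log2FC -1.22, adjusted p = 0.00306). With the GC trend removed, 0 of these 21 genes were called lower by edgeR, and without HCT116 replicate 1 and 2 in turn, 2 and 1 were. Without HCT116 replicate 2 or 3 or HCT116 oxpl-R replicate 3, 1 was higher.

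Growth factor and adhesion genes differed in single members. Their counts are to be read against 8.08% higher and 7.43% lower over all genes tested. NRG1, a ligand of ERBB3, read 0.18, 0.108 and 0.0632 CPM in HCT116 and 3.21, 5.08 and 5.28 CPM in HCT116 oxpl-R (log2FC 5.24 ± 0.50, adjusted p = 2.03e-05), and TGFA, a ligand of EGFR, was higher at 1.62 (70.1 ± 5.6 to 215 ± 26.5 CPM), as was NRG2, another neuregulin (0.859 ± 0.252 to 3.2 ± 0.235 CPM, 1.89, adjusted p = 0.00377), so that 3 of 12 were higher, also with the GC trend removed (5 without HCT116 replicate 2); AREG, the most abundant ligand, was not called (395 ± 52.8 and 291 ± 27.3 CPM). Of 11 YAP and TAZ targets, 2 were higher, also with the GC trend removed (1 without HCT116 oxpl-R replicate 3), among them F3, tissue factor, at 2.73 (21.2 ± 4.16 to 141 ± 36.7 CPM). Of 18 WNT targets, CCND1, cyclin D1 (395 ± 13.9 to 1127 ± 109.9 CPM, log2FC 1.51, adjusted p = 0.000717), AXIN2, a feedback inhibitor (1.24), and DKK1, a secreted WNT antagonist (435 ± 279 to 1584 ± 449 CPM, 1.86), were higher and NOTUM, a WNT-inactivating enzyme (41.4 ± 5.2 to 5.64 ± 1.5 CPM, -2.87), was lower; with the GC trend removed, 2 were higher and 1 lower. DKK1 read 545, 642 and 118 CPM in HCT116, so that replicate 3 was low, and its call ended with the GC trend removed (adjusted p = 0.0593). Of 30 integrin and laminin genes, 4 were higher and 2 lower (6 and 2 with the GC trend removed; 1 lower without any 1 of the 6 libraries); ITGB7, an integrin of lymphocytes, read 0.612, 0.898 and 0.411 CPM in HCT116 and 25.6, 19.8 and 14.4 CPM in HCT116 oxpl-R (log2FC 4.96 ± 0.40, adjusted p = 6.58e-06), LAMA5 was higher at 1.33 and LAMB1 lower at -1.40. Of 25 epithelial junction genes, 3 were higher and 2 lower (1 and 2 with the GC trend removed), shares near those of all genes tested (8.08% and 7.43%), and the lower count was 4 without HCT116 oxpl-R replicate 1 and 1 without HCT116 replicate 3 or HCT116 oxpl-R replicate 2 or 3. CLDN3, a tight junction claudin, was one of the lower genes (35.5 ± 1 to 9.74 ± 2.47 CPM, -1.87).

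Metabolic and housekeeping lists had called members in both directions, to be read against 8.08% higher and 7.43% lower over all genes tested, and their counts moved with single libraries. In cholesterol synthesis and uptake, MVD (168 ± 12.1 to 76.4 ± 29.8 CPM, log2FC -1.14, adjusted p = 0.00985) and DHCR7 (263 ± 35.9 to 119 ± 11.9 CPM, log2FC -1.14, adjusted p = 0.00271), enzymes of the synthesis pathway, were among the 3 of 25 that were lower; 1 member was higher. Both calls ended without HCT116 oxpl-R replicate 3 or with the GC trend removed (log2FC -0.70 and -0.89). In this list 1 gene was higher and 1 lower with the GC trend removed, 2 and 6 without HCT116 oxpl-R replicate 1, and 1 lower without HCT116 oxpl-R replicate 3. Of 22 hypoxia-inducible genes, 3 were higher, such as BNIP3L, a mitophagy receptor (1.28), and 2 lower. With the GC trend removed, and likewise without HCT116 replicate 3, 1 was higher and 1 lower, and 1 was lower without HCT116 replicate 1 or HCT116 oxpl-R replicate 3. Of 18 heat shock genes, 3 were higher and 2 lower (1 and 3 with the GC trend removed; 4 lower without HCT116 oxpl-R replicate 1): HSPB1, the small heat shock protein HSP27, read 633 ± 52.8 and 161 ± 23.9 CPM (-1.98, adjusted p = 0.000115), and HSPA5, the endoplasmic reticulum chaperone BiP, 452, 429 and 469 CPM in HCT116 and 1127, 729 and 894 CPM in HCT116 oxpl-R (1.03), its call ending without HCT116 oxpl-R replicate 1 (0.85) or with the GC trend removed (0.80). Of 78 cytosolic ribosomal protein genes, 6 were higher and 1 lower (6 and 0 with the GC trend removed; 11 higher without HCT116 replicate 2, and 0 to 2 lower with each library left out), with RPL14 at 1.58 and RPL11, which binds MDM2 under nucleolar stress, at 1.46 (328 ± 110.0 to 903 ± 17.4 CPM). Of 32 nucleolar genes, 3 were higher, among them NPM1, nucleophosmin (542 ± 87.8 to 1286 ± 250.3 CPM, 1.25; 0.90 with the GC trend removed, under the cutoff), and POLR1C (1.22), and NOLC1 (-1.27) and POLR1A (-1.21), the largest subunit of RNA polymerase I, were lower. The counts were 2 higher and 4 lower with the GC trend removed, 5 higher without HCT116 replicate 2 and 4 lower without HCT116 oxpl-R replicate 1.

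Of 67 nuclear genes of oxidative phosphorylation, 4 were higher, such as NDUFB5 of complex I (1.64), and 4 lower, such as CYC1, cytochrome c1 (1048 ± 173 to 365 ± 39.5 CPM, -1.52), and COX5B of complex IV (-1.36). These counts are to be read against 8.08% higher and 7.43% lower over all genes tested. With the GC trend removed, 2 were higher and 3 lower. Without HCT116 replicate 1 and 2 in turn, 8 and 9 were higher, and without HCT116 replicate 3, 3 were higher and 7 lower, the median log2FC moving from 0.00 to -0.32. Of the 13 mitochondrially encoded subunits, 0 were called in either direction by edgeR or DESeq2, and 1 was lower at an unadjusted p under 0.05; 1 was called lower with the GC trend removed or without HCT116 oxpl-R replicate 2, and 2 in the paired fit with the replicate block. They summed to 171770, 155810 and 175420 CPM in HCT116 and to 7988, 129170 and 175850 CPM in HCT116 oxpl-R, and their median log2FC of -0.76 became -0.20 without HCT116 oxpl-R replicate 1. MT-CO1, a catalytic subunit of complex IV, read 3653 CPM in that library and 30121 and 36623 CPM in the other resistant ones.

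The difference between the lines under oxaliplatin was set against that without drug. In the untreated samples, 989 genes were higher in HCT116 oxpl-R (4.71% of 21018 tested) and 551 lower (2.62%). Of the genes higher under oxaliplatin, 630 were also higher untreated (40.5% of the former, 63.7% of the latter), and of the lower ones 356 (24.9% and 64.6%). The interaction term tested where the difference between the lines departed from that without drug: 144 genes had a larger log2FC under oxaliplatin (0.685%) and 348 a smaller one (1.66%). These counts moved with single libraries. In the count table alone, 115 and 285 genes were called, against 582 and 576 without HCT116 replicate 3 and 315 and 530 without HCT116 oxpl-R replicate 1, both under oxaliplatin; without single untreated libraries the counts fell to as few as 26 and 101. Of the genes called for the interaction in the count table, 28.8% had a larger log2FC under oxaliplatin, against 38.8% with the GC trend removed, 39.1% with the GC trend removed and the replicate block, and 50.3% without HCT116 replicate 3 under oxaliplatin. The share was lower in other settings: 23.7% with at least 10 counts required in every sample, 20.3% without HCT116 replicate 1 under oxaliplatin and 19.5% without untreated HCT116 replicate 1.

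The G2 and M phase genes differed between the lines far more under the drug than without it. Among all genes tested, 1.66% had a smaller log2FC under oxaliplatin. Of 43 tested, 17 had a smaller log2FC under oxaliplatin (24 with the GC trend removed) and 0 a larger one by edgeR, with none larger at an unadjusted p under 0.05. In the untreated comparison 1 was lower, beside 2.62% of all genes tested, at a median log2FC of -0.35. Without HCT116 oxpl-R replicate 1, 17 members of the count table had a smaller log2FC, against 16 with it. On the scale of all 12 samples, PLK1 read 229, 224 and 270.4 CPM in untreated HCT116 and 223, 205 and 202 CPM with drug, and 168, 172 and 166 CPM in untreated HCT116 oxpl-R and 31.1, 16.8 and 25.2 CPM with drug (interaction log2FC -2.59 ± 0.27, adjusted p = 6.15e-05). PLK1 thus read between 202 and 270.4 CPM in HCT116 and dropped in HCT116 oxpl-R. The interaction was also called for CDC20 (-2.58, adjusted p = 1.83e-05), MKI67 (-2.09, adjusted p = 0.00176), AURKB (-2.24), BIRC5 (-2.20), FOXM1 (-2.08) and MYBL2 (-2.16). The log2FC of drug over untreated in HCT116 lay between -0.48 (MKI67) and 0.27 (AURKB) for these 7 genes, none of them called, and between -2.79 (PLK1) and -1.92 (FOXM1) in HCT116 oxpl-R, all called. The list as a whole moved in both lines. In HCT116, 9 of 43 members were lower with drug (median log2FC -0.76; of all genes tested, 2.91% were lower and 3.89% higher), and in HCT116 oxpl-R 36 were lower (median -1.98; of all genes, 1.77% were lower and 1.51% higher).

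Of DNA replication genes, 16 of 52 had a smaller log2FC under oxaliplatin, beside 1.66% of all genes tested. A larger one was called for 0 (none at an unadjusted p under 0.05). In the untreated comparison 0 were called by edgeR, beside 2.62% lower and 4.71% higher of all genes tested. At an unadjusted p under 0.05 (edgeR), 19 were lower and 1 higher. TK1 read 376, 374 and 429 CPM in untreated HCT116 and 616, 624 and 608 CPM with drug, but 249.6, 259.8 and 294 CPM in untreated HCT116 oxpl-R and 122, 77.2 and 105 CPM with drug (interaction -2.05 ± 0.24, adjusted p = 0.000188). E2F1 read 80.9, 76.3 and 94.2 CPM and 127, 111 and 124 CPM in HCT116, and 83.6, 96.1 and 95.9 CPM and 23.9, 19.1 and 20.2 CPM in HCT116 oxpl-R (interaction -2.65 ± 0.23, adjusted p = 1.79e-05). The untreated samples of the lines overlapped for E2F1, and the log2FC of drug over untreated was 0.53 in HCT116 (adjusted p = 0.0292) and -2.12 in HCT116 oxpl-R (adjusted p = 3.12e-07). The list did not share the parental values of TK1 and E2F1. In HCT116, 5 of 52 members were lower with drug (median log2FC -0.50), beside 2.91% of all genes tested. In HCT116 oxpl-R 36 were lower (median -1.37), beside 1.77% of all genes tested. CDT1 (interaction -2.51, adjusted p = 4.73e-05) and RRM2 (-1.05, adjusted p = 0.0296) also had a smaller log2FC, as did H2AX (-1.65), EXO1 (-1.63) and FANCG (-1.36).

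Among p53 targets, the line difference was in part present without drug. Over all genes tested, 4.71% were higher untreated, and the interaction was larger for 0.685% and smaller for 1.66%. Of 36 members, 8 were higher untreated and 0 lower by edgeR (24 higher and 1 lower at an unadjusted p under 0.05). For the interaction, 3 were larger and 1 smaller (11 and 8 at an unadjusted p under 0.05; 4 and 0 with the GC trend removed). In the count table alone, 1 was larger and 1 smaller, against 1 and 3 without HCT116 oxpl-R replicate 1 and 4 and 4 without HCT116 replicate 3, both under oxaliplatin. CDKN1A read 143, 132 and 143 CPM in untreated HCT116 and 512, 527 and 592 CPM in untreated HCT116 oxpl-R (log2FC 1.96, adjusted p = 1.55e-06). Its interaction was not called in the main edgeR fit (-0.88, adjusted p = 0.0887) or in any alternative. In some alternatives it missed only the fold cutoff, as by DESeq2 (-0.91, adjusted p = 0.0014) or without HCT116 oxpl-R replicate 1 under oxaliplatin (-0.996, adjusted p = 0.014). GDF15 was also higher untreated (log2FC 2.82), and its interaction was not called in the main fit (-0.98, adjusted p = 0.0952). The GDF15 interaction was called without HCT116 replicate 3 (-1.03, adjusted p = 0.0392) or HCT116 oxpl-R replicate 1 (-1.28, adjusted p = 0.00475) under oxaliplatin, with at least 10 counts required in every sample (-1.02, adjusted p = 0.0491) and by DESeq2 (-1.01, adjusted p = 0.0192). MDM2 read 99.3, 101 and 93.1 CPM in untreated HCT116 and 108, 126 and 188 CPM with drug, and 175, 157 and 147 CPM in untreated HCT116 oxpl-R and 588, 671 and 779 CPM with drug (interaction 1.57 ± 0.28, adjusted p = 0.00559). TP53I3 also had a larger log2FC with drug (interaction 1.48, adjusted p = 0.0127), and BBC3 a smaller one (-1.26, adjusted p = 0.0192), being higher in the resistant line untreated (22.4 to 22.5 CPM against 35.9 to 39.5 CPM) and lower on average with drug. The call for BBC3 ended with the GC trend removed (interaction -0.84, adjusted p = 0.0284).

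CDKN2A read 79.8, 70.1 and 92.5 CPM in untreated HCT116 and 274, 201 and 174 CPM with drug, and 59.6, 72.5 and 58 CPM in untreated HCT116 oxpl-R and 55.4, 44.2 and 29.8 CPM with drug (interaction -1.97 ± 0.31, adjusted p = 0.00242). It was higher with drug than without in every HCT116 sample and in no HCT116 oxpl-R sample. NPM1, the nucleolar protein, fell with drug in HCT116 from 1939.9, 1717 and 1343 CPM to 450.3, 623 and 568 CPM (log2FC -1.61, adjusted p = 0.000142). In HCT116 oxpl-R it read 1753, 1396 and 1849 CPM untreated and 1271, 1107 and 1575 CPM with drug (-0.34, adjusted p = 0.485; interaction 1.27, adjusted p = 0.0326; 0.83, adjusted p = 0.0624 with the GC trend removed). HSPA5 (interaction 1.33) and DDIT3 (1.79), both induced by endoplasmic reticulum stress, and AKR1B10 (2.63) had larger differences under the drug. CBS, cystathionine beta-synthase, read 0.326, 1.41 and 0.676 CPM in treated HCT116 and 6.81, 5.73 and 7 CPM in treated HCT116 oxpl-R, and at most 0.426 CPM in the untreated samples (interaction 2.91). COL15A1, a basement membrane collagen chain, read 2.81, 2.8 and 2.74 CPM in treated HCT116 oxpl-R and at most 0.356 CPM in the other groups (interaction 3.43). The interaction calls of NPM1, DDIT3, CBS, COL15A1, RRM2, EXO1, BBC3 and ATOX1 ended when at least 1 of the 12 libraries was left out.

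**Figure D3:**
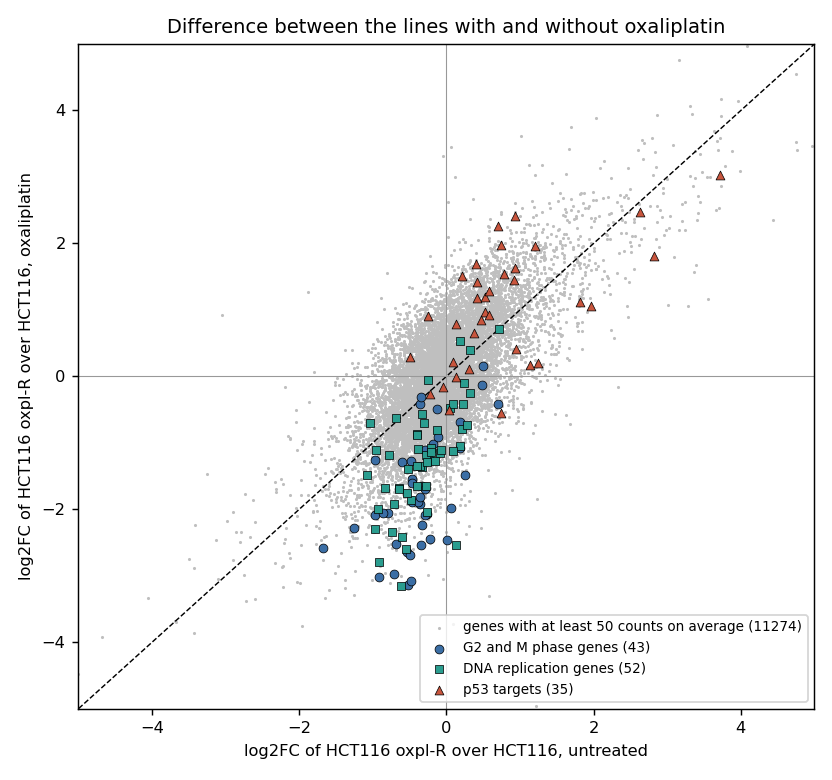
log2FC of HCT116 oxpl-R over HCT116 with oxaliplatin (vertical) against that in untreated cells (horizontal) for genes with at least 50 counts on average (grey) and for 3 lists (coloured); the dashed line marks equal differences, and 52 genes lie outside the axes. Of the G2 and M phase genes, 42 of 43 lie below the dashed line, of the DNA replication genes 47 of 52, and of the p53 targets 14 of 35.

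Other line differences were there with and without drug. LCN2 (untreated log2FC 7.33), NEDD9 (8.65), ICAM1 (3.41), APOBEC3C (2.18), AHR (2.01) and TNFRSF10C (5.82) were already higher in untreated HCT116 oxpl-R, and NOTUM (-2.23) lower; none of these 7 was called for the interaction in the 12-sample edgeR fit. ICAM1 was called by DESeq2 (-1.06, adjusted p = 0.00277), with stricter filters on low counts (-1.08 and -1.10) and without HCT116 oxpl-R replicate 1 under oxaliplatin (-1.09, adjusted p = 0.0351) or HCT116 replicate 3 under oxaliplatin (-1.0, adjusted p = 0.0397), and NEDD9 without untreated HCT116 replicate 1 (-3.61, adjusted p = 0.0487). ATOX1 was higher by less with drug than without (untreated log2FC 2.48, interaction -1.04, adjusted p = 0.0431), a call at the cutoff that ended with the GC trend removed (-1.0, adjusted p = 0.0401). The replicate block ended this call too (-1.04, adjusted p = 0.0624).

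By chromosome, among 10968 genes of the count table with at least 10 counts on average, 1227 were higher and 1152 lower, and the median log2FC was -0.00. It was 0.61 on chromosome 3, where 166 of 625 genes were higher and 23 lower (0.51 with the GC trend removed; 0.40 untreated), and 0.52 on chromosome 21 (0.43; 0.28). It was -0.41 on chromosome 16, where 21 of 512 genes were higher and 93 lower (-0.27; -0.27). Chromosome 19, with a median of -0.39 under the drug, had -0.05 with the GC trend removed and 0.09 untreated, and chromosome 5 went from 0.39 to 0.18. Chromosomes 3, 16 and 21 kept their direction in all 3 sets of values, and so did others, such as chromosomes 2, 5, 6 and 15. On chromosome 2 the median was -0.14, with -0.28 after the GC trend was removed and -0.30 untreated. On chromosome 15 these values were -0.13, -0.26 and -0.28. These count table genes end in alphabetical order at SETP6.

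**Figure D4:**
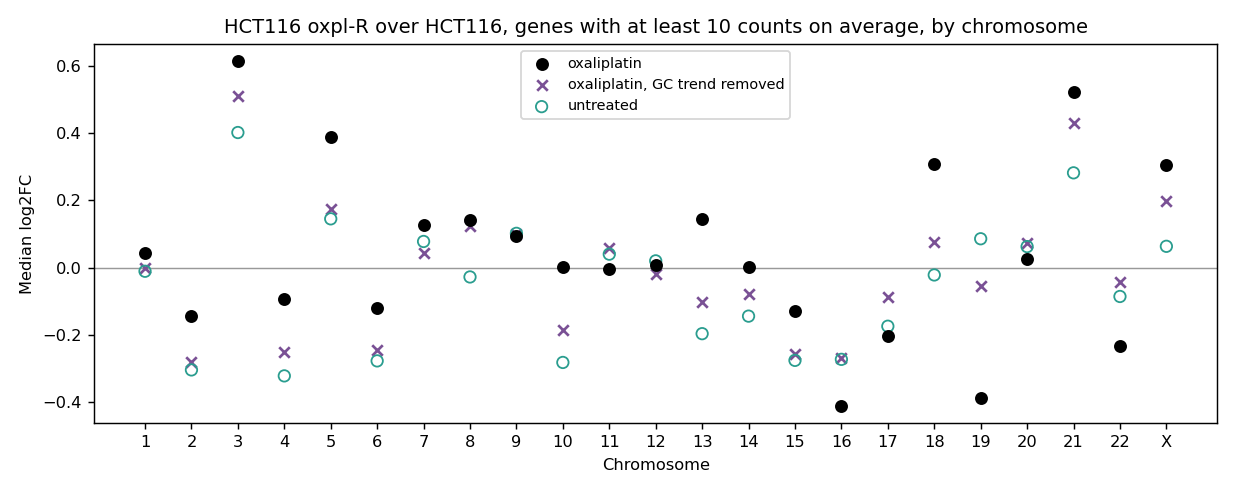
Median log2FC of HCT116 oxpl-R over HCT116 for genes with at least 10 counts on average on each chromosome, with oxaliplatin (filled points), with the GC trend removed (crosses) and untreated (open circles). Chromosome 3 is highest at 0.61, and chromosome 19 lies at -0.39 with drug and at 0.09 untreated.

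Genes that sort after SETP6 were tested in the second table, where 259 of 2911 were higher and 221 lower. SMIM10, a small integral membrane protein, had no count in HCT116 and 10.7, 19 and 17.6 CPM in HCT116 oxpl-R (at least 175-fold higher). The trefoil factors, secreted by mucous epithelia, were near silent in HCT116: TFF2 had 2 counts in all HCT116 libraries and 1343 in HCT116 oxpl-R (ratio 707, interval 195 to 5840), and TFF1 had none against 0.271, 0.854 and 0.64 CPM (at least 6.52-fold). SLC5A1, the sodium-glucose transporter of the gut, read 0.168, 0 and 0.0497 CPM against 12.6, 5.88 and 4.13 CPM (log2FC 6.67 ± 0.75, adjusted p = 0.000123). TCF21, a mesenchymal transcription factor, was lower (3.8, 4.21 and 6.01 CPM to 0.103, 0.038 and 0 CPM; log2FC -6.40 ± 0.70, adjusted p = 0.000104), and SLC15A1, an intestinal peptide transporter, read 0.899, 0.555 and 0.99 CPM in HCT116 and had no count in HCT116 oxpl-R (at least 8.55-fold lower).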

How the data were processed

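RNA-seq was performed on polyadenylated RNA of 24 samples in 8 groups of 3, of which the 6 treated with 25 µM oxaliplatin and no doxycycline were compared, with the 6 untreated samples as background. The authors trimmed reads with Trimmomatic, quantified transcripts with Salmon 1.6.0 against GRCh38 with GENCODE annotation and sequence and GC bias correction, summarised them per gene with tximport and deposited estimated counts; replicates were not pooled. The labels do not say how the cultures were separated. The deposited count table lists 33113 genes alphabetically, the last being SETP6. The second table holds 37967 genes; although its name mentions TPM, its values are on a count scale (median ratio of its values to the counts, 0.973 to 1.03 per sample) and were read as length-scaled estimated counts. Its 4854 genes after SETP6 were taken from there, of which 2911 were tested; genes after TSC22D3 were not analysed here. All sample columns were matched by library name, with 0 left unmatched.

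Estimated counts were rounded to whole numbers, genes with no count in the samples compared were removed as in the study, and edgeR 4.0.16 (R 4.3.3, TMM factors, quasi-likelihood test, Benjamini-Hochberg) was fitted on each table, without covariates; CPM used the TMM factors. The interaction term was fitted on 12 samples. Fitted log2FC of genes with a line at or near 0 depend on edgeR's prior count, so a ratio or bound from counts is given for those; a count of 0 was taken to allow 3 counts per library, and exact 95% intervals cover counting error only. Total counts were 24838095 to 37927720 over the 24 samples. On simulated data with 15824 genes for the line difference under oxaliplatin, the test recovered 92 of 93 genes changed by a log2FC of 1.5 and 107 of 107 changed by 2, with 2 false calls. The simulation gave every gene the same dispersion, changed only well-counted genes and held no GC trend or outlying library. It checks that the test runs correctly and does not measure recovery or false calls in these libraries.

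Same-numbered libraries of the lines deviated together from their group means (correlations 0.142, 0.185 and 0.252 over 10968 genes for replicates 1, 2 and 3), so a fit with the replicate number as a block is also given; HCT116 replicate 1 correlated more with HCT116 oxpl-R replicate 2 (0.332). This pairing is inferred from the data, since the labels give only the numbers. The GC correction removed a spline with 5 degrees of freedom from each library. Other alternatives used RLE factors, DESeq2 1.42.0, limma 3.58.1 on log2(value + 1) and log2(value + 0.1), other filters and each library left out. Promoters came from RefSeq windows. Tables and plots were made with Python 3.11.15, pandas 2.3.3, numpy 2.4.6, scipy 1.17.1 and matplotlib 3.10.9.

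The members of the 34 gene lists, the comparison itself and the tests were chosen with earlier results of these data known, so a list's count is a description. Named genes followed a rule: called genes with separated samples and no count under 10 in the higher line, taken as the 8 largest and 8 smallest log2FC and the 6 largest and 6 smallest differences in mean CPM; the 4 largest and 4 smallest log2FC after SETP6; the 6 largest and 6 smallest interactions among called genes with no count under 10 in the highest group; the 3 called members with the largest absolute log2FC per list and direction and its 2 most abundant members; and a fixed set of genes of the p53, cell cycle, repair, transport, redox and stress pathways. The rule gave 222 genes, from which the text names a part; some items are withheld and not reported here. KRT18, EPCAM, CDH1, CDX2, HNF4A, AURKB, FOXM1, MYBL2, E2F1, BRCA1, BRCA2, ACTA1, CDK7 and COX17 lie outside it and were named after their values were seen.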

Additional observations from a re-analysis of the deposited data

Results flagged for a closer look

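The difference between the lines under oxaliplatin was tested against the difference between them without drug, by the interaction term of the 12-sample edgeR fit, and the genes named here or above whose interaction passed the threshold are listed. There were 46 of them, 14 with a larger log2FC of HCT116 oxpl-R over HCT116 under oxaliplatin and 32 with a smaller one; values are interaction log2FC. With the GC trend removed, 14 of these calls ended: those of CDKN1C, BBC3, CETN2, NPM1, CLDN3, PFN1, CYC1, ATOX1, GSTP1, DUSP13A, GPX3, KRT36, FAM225A and RN7SK. The replicate block ended 8 of the 43 calls in the count table. Among them were ATOX1 (-1.04, adjusted p = 0.0624), CDKN1C (-1.05, adjusted p = 0.058), ADAMTS4 (-4.09, adjusted p = 0.0846) and ACTA1 (10.88, adjusted p = 0.104). Of the 43 genes in the count table, 18 kept the call whichever of the 12 libraries was left out (PLK1, CDC20, AURKB, BIRC5, MKI67, MYBL2, FOXM1, E2F1, CDT1, CDKN2A, CDKN2C, H2AX, FANCG, MDM2, BCL2L12, AKR1B10, HSPA5 and OAS3), and 25 lost it without at least 1 of them.

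The cell cycle genes among them, a set that holds only genes with a called interaction, all had a smaller log2FC under the drug. AURKB, FOXM1, MYBL2 and E2F1 were chosen after their values were seen. CCNB1, CDK1, TOP2A and PCNA, fixed by name beforehand, were not called for the interaction. The mitotic genes PLK1 (-2.59), CDC20 (-2.58), AURKB (-2.24), BIRC5 (-2.20) and MKI67 (-2.09) and their regulators MYBL2 (-2.16) and FOXM1 (-2.08) stood together with the S phase genes E2F1 (-2.65), CDT1 (-2.51), TK1 (-2.05) and RRM2 (-1.05). The same held for the kinase inhibitors CDKN2A (-1.97), CDKN2C (-1.94) and CDKN1C (-1.06) and the damage response genes H2AX (-1.65), EXO1 (-1.63) and FANCG (-1.36).

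Of p53 and apoptosis genes, MDM2 (1.57), TP53I3 (1.48) and the decoy receptor TNFRSF10D (1.19) had a larger log2FC under the drug, and BBC3 (-1.26) and BCL2L12 (-1.54) a smaller one. Of stress genes, AKR1B10 (2.63), DDIT3 (1.79) and HSPA5 (1.33) had a larger log2FC, as had the repair gene CETN2 (1.26) and the nucleolar genes NPM1 (1.27) and POLR1C (1.17). A smaller log2FC was found for OAS3 (-1.36), CLDN3 (-1.49), PFN1 (-1.21), the respiratory subunits CYC1 (-1.14) and COX5B (-1.34), ATOX1 (-1.04) and GSTP1 (-1.03). GSTP1 read 1063, 947 and 1153 CPM in untreated HCT116 and 2750.2, 2308 and 1943 CPM with drug, against 983, 1068 and 1085 CPM and 1195, 1066 and 1136 CPM in HCT116 oxpl-R.

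The largest interactions by the naming rule were mostly in low genes. COL15A1 (3.43) and CBS (2.91) had a larger log2FC. PDE4C, a phosphodiesterase (3.98), had no count in 2 of the 3 untreated resistant libraries. DUSP13A, a phosphatase (5.82), had no count in untreated HCT116 oxpl-R. GPX3, an extracellular glutathione peroxidase (-7.18), KRT36, a keratin (-5.78), and the non-coding FAM225A (-5.97) had none in untreated HCT116. The sizes of these 5 depend on the prior count and are no bounds. RN7SK, a non-coding RNA that lacks a poly(A) tail (-6.17), read 27.8, 19 and 0 CPM in untreated HCT116, 14.2, 43.4 and 38.7 CPM in untreated HCT116 oxpl-R, 94.2, 75.7 and 56.5 CPM in treated HCT116 and 1.62, 0 and 5.75 CPM in treated HCT116 oxpl-R. CLPSL2 (-4.58) and ADAMTS4, a protease (-4.11), averaged 0.035 and 0.0603 CPM in treated HCT116 oxpl-R and 0.975 and 0.567 CPM in treated HCT116. ACTA1 (12.70) rests on 1 treated HCT116 oxpl-R library.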

How the results depend on the processing

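In the count table, 1296 genes were higher and 1209 lower under oxaliplatin by edgeR. The counts were 1473 and 1186 by DESeq2, 1122 and 1012 with the GC trend removed, 1392 and 1282 with the replicate block, 1302 and 1214 without mitochondrial genes, and 1099 to 1430 and 933 to 1320 with each library left out. An absolute log2FC above 2 left 436 and 317, and 83 and 53 after SETP6, where 353 genes were lower with no cutoff. Interaction counts moved most: from 115 larger and 285 smaller to 230 and 493 by DESeq2, 459 smaller with filterByExpr, 10 and 47 above 2, and 26 to 582 and 101 to 576 with single libraries left out.

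Of the 138 genes named as called, 104 were called under every alternative that tested them at the same cutoffs, and 25 lost the call with 1 library left out. The GC trend's removal ended 20 calls and added 5, those of TOP2A, BRCA2, PDE4C, CDK1 and CYP1B1 (-1.04). For the line difference under oxaliplatin, the replicate block added TOP2A, BRCA2 and MT2A and ended the call of ACTA1 (5.21, adjusted p = 0.067 by edgeR). It changed no other call of a named gene for that difference, but ended 8 of the 43 interaction calls of named genes in the count table. ACTA1 had a log2FC of -0.019 without HCT116 oxpl-R replicate 2, the lowest with a library left out, and 10.65 without replicate 3, the highest. In the second table BMF (-1.35), LAMA5 (0.92), CDKN1C (-0.73), ERCC2 (-0.95), BRCA1 (-1.19), BLM (-1.51), CLSPN (-1.35), HLA-C and HMGA1 lost the call. The cause was not tested. Over all lists, 19 directions had no member called by edgeR, with 20 members at an unadjusted p under 0.05 and 1 called by DESeq2. A count of 0 allows 3 counts, about 0.1 CPM per library; the effect of depth on the calls was not tested.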
